A study of Arabidopsis thaliana with 22 samples.

Results

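Seedlings of the *lrx345* triple mutant were compared with wild-type (WT, Col-0) seedlings before either had received NaCl. The comparison used the 4 libraries labelled 0 h among the 22 libraries of the series, 2 for WT and 2 for *lrx345*. It covered every gene with enough counts, which was 21831 of the 33602 genes in the count table. Counts were judged over all 22 libraries, so some tested genes had few or no counts at 0 h. With the 4 libraries at 0 h alone, 20266 genes passed. Shares of all tested genes given below include genes that could hardly differ at 0 h. All seedlings were 10 days old and were harvested whole, so root and shoot were measured together. The *lrx345* mutant is 1 line that combines T-DNA insertions in *LRX3*, *LRX4* and *LRX5*, and WT carries none of them. The remaining libraries, 3 per genotype at 6, 24 and 72 h of 150 mM NaCl, served here to estimate the spread between replicates and to follow the genes found at 0 h. The question addressed by the design is which functions already differ in the mutant in the absence of salt.

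LRX proteins are cell wall proteins that join a leucine-rich repeat domain to an extensin-like domain, and they bind RALF peptides, secreted signals that are also ligands of the receptor kinase FERONIA (FER). Together they form a module that monitors the cell wall during growth and stress. Jasmonic acid (JA) is made from chloroplast lipids and acts by removing JAZ repressors from transcription factors such as MYC2, and it drives defence against wounding, insects and necrotrophic fungi. Salicylic acid (SA) is made mainly through isochorismate, acts through the NPR proteins and drives defence against biotrophic pathogens, and *PR1* is its usual marker. In many settings strong defence signalling goes along with reduced growth.

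The primers used to genotype the 3 insertion lines are shown because they place each disrupted gene on the genome. All of them matched the RefSeq TAIR10.1 genome exactly, and each of the 3 genes has 1 exon. The SALK_094400 pair spans chr4:7758937-7760052 inside the exon of *LRX3* (AT4G13340, plus strand), with a second exact match of the left primer in the same gene. The GABI_017A08 pair spans chr3:8901097-8901783 over *AT3G24480* (minus strand), the locus of *LRX4*, with the right primer just outside the annotated gene. The SALK_013968 pair spans chr4:10276818-10278088 inside the exon of *AT4G18670* (minus strand), the locus of *LRX5*.
SALK_094400 left primer: agaatatactggcggaggagg
SALK_094400 right primer: aatcggaagattcgtaccgtc
GABI_017A08 left primer: aggttgaagaatgtgacggtgt
GABI_017A08 right primer: tcttaagtaatggaaacgacatcg
SALK_013968 left primer: aataggagagctcggagttgg
SALK_013968 right primer: acgctgacattgctggttatc

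Transcripts of the 3 loci were measured first as a check of the labels. Levels are given as FPKM, counted fragments scaled to exon length and library size, computed here from the deposited counts with TMM factors, in the order replicate 1 and replicate 3 for WT and replicate 1 and replicate 2 for *lrx345*. *AT4G18670* stood at 36.0 and 40.3 FPKM in WT and at 6.10 and 6.92 in *lrx345*, a log2 fold change of -2.56 ± 0.20 (SE; adjusted p = 2.63e-09). *LRX3* was lower by a log2 value of -1.96 ± 0.15 (adjusted p = 1.51e-09). *AT3G24480* was lower by -0.55 ± 0.17 (adjusted p = 0.0236), and this call was lost without WT replicate 3 (-0.41, adjusted p = 0.236), without *lrx345* replicate 1 (-0.54, adjusted p = 0.110) and without *lrx345* replicate 2 (-0.55, adjusted p = 0.115). The 2 genotypes did not overlap at any of the 3 loci, nor, in either direction, at 60.3% of all tested genes. Counts over a whole gene include RNA made on either side of an insertion. Here and throughout, log2 fold changes are *lrx345* minus WT, the test was edgeR's quasi-likelihood test fitted to all 22 libraries, p-values were adjusted by Benjamini-Hochberg over all 21831 genes, and a gene is called higher or lower at an adjusted p under 0.05.

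Depth at 0 h was 11447188 to 15047080 counted fragments per library. Libraries of 1 genotype were not duplicates of each other, since their counts differed by more than sampling noise (chi-square per degree of freedom 2.73 between the WT libraries and 7.31 between the *lrx345* libraries, against 42.1 to 52.0 between genotypes). The *lrx345* libraries differed from each other more than the WT libraries did. Among 16971 genes with a mean of at least 50 counts, 69 were over 2-fold higher in replicate 2 than in replicate 1 of *lrx345* and 90 were over 2-fold lower, against 18 and 28 between the WT libraries. Replicate 2 of *lrx345* was the lower of the pair for root hair genes, for example *FLA6* at 8.89 and 9.14 FPKM in WT and 8.46 and 0.325 in *lrx345*, and the higher for several defence genes. Nothing in the labels says that the libraries came from separate cultures, so p-values measure the spread between these samples. With 2 libraries against 2, an exact permutation test of any single gene cannot give a p below 0.333, and the p-values rest on the model across all genes and libraries.

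Before salt, 3940 of the 21831 tested genes differed between the genotypes. They comprised 2190 genes higher in *lrx345* (10.0%) and 1750 lower (8.02%). The increases were larger than the decreases, with a median log2 fold change of 1.05 among the genes called higher and -0.52 among those called lower. By over 2-fold, 1152 genes were higher (5.28%) and 249 lower (1.14%), and by over 16-fold 148 genes were higher and 4 lower. The median over all tested genes was -0.04, and the shares called were alike on the 5 chromosomes, 9.46 to 11.3% higher and 7.72 to 8.85% lower. Of the genes called higher, 390 had a mean under 1 FPKM in WT and 32 had no count in either WT library. The FPKM of the genotypes did not overlap for 2189 of the 2190 genes called higher and 1749 of the 1750 called lower. Of all tested genes, 60.3% did not overlap. The calls were made on these same 4 libraries, so their lack of overlap follows largely from the call and is no separate support. The number of lower genes depended on single libraries, being 934 without WT replicate 1, 874 without WT replicate 3, 1064 without *lrx345* replicate 1 and 800 without *lrx345* replicate 2, whereas the number of higher genes ranged from 1531 to 1890 in the same fits.

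**Figure D1:**
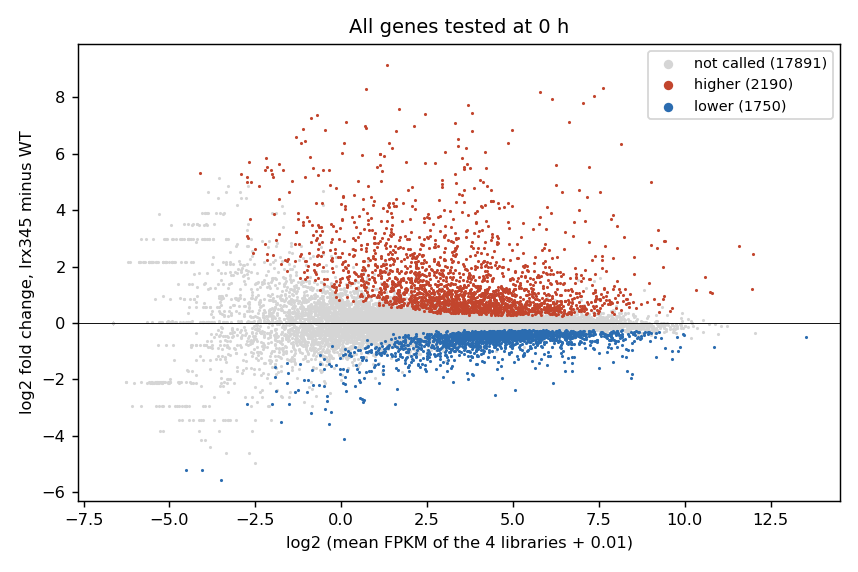
Log2 fold change (*lrx345* minus WT at 0 h) of each of the 21831 tested genes against the log2 of its mean FPKM over the 4 libraries (plus a small constant), with the 2190 genes called higher and the 1750 called lower in colour. The called genes reach further above 0 than below it.

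The 10 largest increases among well-counted genes included 4 members of the JA output list. They were *NATA1*, *JAL23*, *PDF1.2*, *PDF1.2c*, *PDF1.3*, *CYP82C2*, *AT1G54020*, *scpl14*, *MBP1* and *DIR5*, of which *NATA1* and the 3 PDF genes are on that list. *NATA1* (chr2:16298227-16299202), an ornithine acetyltransferase that makes a JA-inducible defence compound, stood at 1.18 and 1.22 FPKM in WT and at 337 and 441 in *lrx345* (log2 fold change 8.33 ± 0.37, adjusted p = 2.22e-13). *JAL23*, a jacalin-related lectin gene, rose from 0.532 and 0.217 FPKM to 105 and 114 (8.17 ± 0.40, adjusted p = 1.02e-12). *MBP1*, a myrosinase-binding protein gene, rose from 1.37 and 1.46 to 185 and 209 FPKM (7.11 ± 0.31, adjusted p = 2.22e-13). These genes were near background in both WT libraries and strongly expressed in both *lrx345* libraries. *CYP82C2*, a cytochrome P450 of tryptophan-derived defence compounds, was less even, at 0.0457 and 0.179 FPKM in WT and 9.71 and 41.3 in *lrx345* (7.72 ± 0.91, adjusted p = 2.13e-06). *DIR5*, a dirigent protein gene, had 3 and 0 counts in WT and 134 and 276 in *lrx345*, a ratio of 142 with a 95% counting interval of 48.3 to 693.

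The 10 largest decreases, chosen with the same condition that the genotypes did not overlap, included 2 of the mutated loci and reached smaller sizes. They were *FRO2*, *AT4G18670*, *AT5G03120*, *FLA13*, *SEP3*, *AT2G05540*, *LRX3*, *AT1G12080*, *LUP1* and *AT4G16563*. *AT1G12080* was the most highly expressed of them, at 548 and 552 FPKM in WT and 149 and 136 in *lrx345* (-1.95 ± 0.23, adjusted p = 1.11e-06). *LUP1*, a lupeol synthase gene of triterpene metabolism, stood at 11.1 and 13.7 FPKM in WT and 3.25 and 3.34 in *lrx345* (-1.92 ± 0.21, adjusted p = 2.75e-07). *SEP3*, a MADS-box gene best known from flowers, fell from 13.7 and 17.4 to 3.52 and 3.84 FPKM (-2.08 ± 0.29, adjusted p = 1.05e-05).

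Genes that make JA were higher in the mutant, from the first enzymes to the last chloroplast step. Of 17 tested genes of JA synthesis, 12 were called higher and none lower, with a median log2 fold change of 1.64. *LOX2*, a 13-lipoxygenase that starts the pathway, stood at 112 and 109 FPKM in WT and at 944 and 1229 in *lrx345* (3.30 ± 0.15, adjusted p = 5.3e-13). *AOS*, the allene oxide synthase that carries out the next step, rose from 58.9 and 58.8 to 202 and 226 FPKM (1.86 ± 0.15, adjusted p = 4.34e-09). Both *lrx345* libraries lay above both WT libraries for each enzyme, and the same held for the allene oxide cyclases. Over all tested genes, 60.3% had no overlap between the genotypes, in either direction. *AOC2* rose from 157 and 161.5 to 1074 and 1333 FPKM (2.92 ± 0.22, adjusted p = 1.65e-09), and its neighbours *AOC1* and *AOC3* rose by 3.10 and 1.67. *OPR3*, which reduces the cyclised product in the peroxisome, rose from 17.5 and 17.4 to 48.5 and 57.5 FPKM and *OPCL1*, a ligase that prepares it for shortening, by a log2 value of 1.64 ± 0.20. *JAR1*, which joins JA to isoleucine to form the active hormone, was not called, at 25.9 and 25.3 FPKM in WT and 26.9 and 28.7 in *lrx345* (0.12 ± 0.11, adjusted p = 0.509).

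Among 19 tested genes of JA signalling, 12 were called higher and none lower, with a median of 1.23. The JAZ genes, which encode repressors that are themselves induced by JA, led the list. *JAZ1* rose from 31.1 and 31.3 to 93.5 and 116 FPKM (1.75 ± 0.16, adjusted p = 1.57e-08). *JAZ10* rose from 1.94 and 1.49 to 14.7 and 13.6 FPKM (3.05 ± 0.34, adjusted p = 4.31e-07). *MYC2*, the central JA transcription factor, rose from 25.99 and 22.7 to 56.1 and 55.2 FPKM (1.19 ± 0.19, adjusted p = 8.55e-05). Replicates of each genotype were close for all 3 genes. *COI1*, the F-box receptor subunit, was not called, at 14.3 and 14.2 FPKM in WT and 12.2 and 12.2 in *lrx345* (-0.22 ± 0.10, adjusted p = 0.122). *ERF1*, which integrates JA with ethylene, was called higher by 2.27 ± 0.60 (adjusted p = 0.00826), and the call was lost without WT replicate 3 (adjusted p = 0.0978) and without *lrx345* replicate 2 (adjusted p = 0.054). *ORA59*, a related integrator, was higher by 1.51 ± 0.22 (adjusted p = 1.76e-05). Of 8 tested genes that convert or break down JA, 6 were called higher, including *CYP94C1*, a hydroxylase of active JA, by 2.03 ± 0.36 and *JRG21* by 6.05 ± 0.59.

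All 16 tested genes of the JA output list were called higher, with a median of 4.85, or 4.63 with *THI2.1* set at its lower bound. The plant defensin *PDF1.2* stood at 1.48 and 0.962 FPKM in WT and 325 and 325 in *lrx345* (8.03 ± 0.58, adjusted p = 6.2e-10). *PDF1.2b*, *PDF1.2c* and *PDF1.3* are close copies, so fragments that fit several of them were dropped by the authors' counting, and within *PDF1.2b* 15.9% of 50-base windows are repeated elsewhere in the genome. *VSP2*, an acid phosphatase of the *MYC2* branch, rose from 2.19 and 1.49 to 27.3 and 30.9 FPKM (3.98 ± 0.34, adjusted p = 7.62e-09). Markers of the defensin branch and of the VSP branch of JA output were both higher. *BGLU18*, a beta-glucosidase of the endoplasmic reticulum that can also release abscisic acid, rose from 35.8 and 26.8 to 909 and 1087 FPKM (4.99 ± 0.21, adjusted p = 2e-13). *TPS04*, which makes a volatile terpene precursor, rose from 0.173 and 0.315 to 21.5 and 33.8 FPKM (6.79 ± 0.55). *THI2.1*, a thionin gene, had 0 counts in both WT libraries and 19 and 14 in *lrx345*, at least 11.5-fold higher with a floor of 3 counts over the WT group. The list summed to 394 and 425 FPKM in WT and to 4286 and 4789 in *lrx345*. Every one of the JA output and JA synthesis calls held with any 1 library left out, and 9 of the 12 JA signalling calls did.

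**Figure D2:**
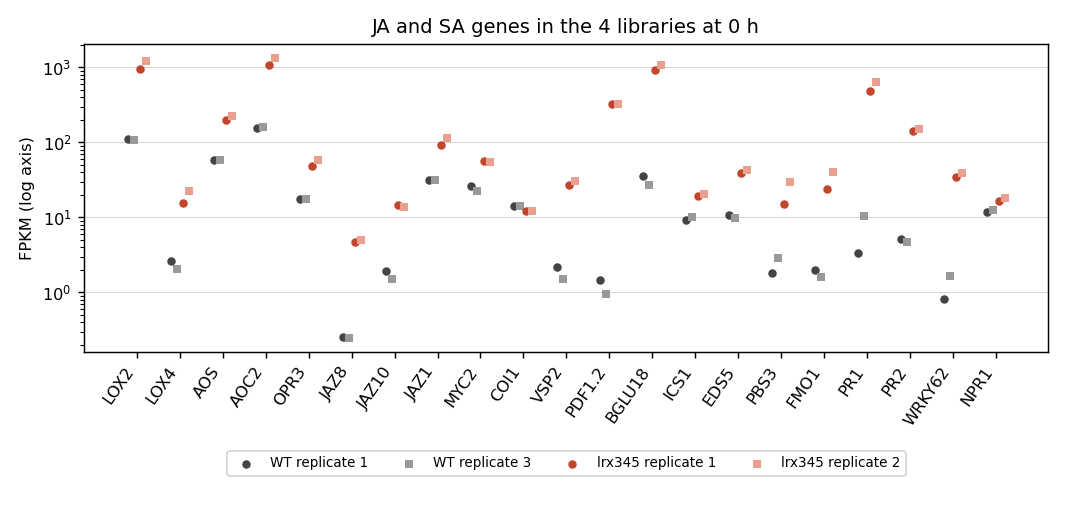
FPKM on a log axis of 21 JA and SA genes in the 4 libraries at 0 h, 1 point per library, WT and *lrx345* in different colours. The *lrx345* points of called genes lie above both WT points, and the gap is widest for *PDF1.2*, at a log2 fold change of 8.03. *COI1* is the gene shown that was not called.

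SA genes were higher in the same seedlings. Of 12 tested genes of SA synthesis and its control, 11 were called higher, with a median of 1.81. *ICS1*, the isochorismate synthase that makes most SA, rose from 9.14 and 10.0 to 19.1 and 20.6 FPKM (1.05 ± 0.13, adjusted p = 1.94e-06). *EDS5*, the exporter of isochorismate from the chloroplast, rose from 10.9 and 9.92 to 38.5 and 43.4 FPKM (1.98 ± 0.16, adjusted p = 2.95e-09), and *PBS3*, which joins isochorismate to glutamate, from 1.82 and 2.84 to 15.03 and 29.8 (3.25 ± 0.34, adjusted p = 1.48e-07). Of these 3 genes the synthase had the smallest fold change, and its replicates were the closest. *CBP60G*, a transcription factor for *ICS1*, was higher by 3.46 ± 0.39 but uneven in *lrx345*, at 19 and 51.4 FPKM against 2.81 and 3.55 in WT. *EPS1*, which releases SA from its glutamate conjugate, was higher by 0.60 (adjusted p = 0.016), a call lost without WT replicate 3 (adjusted p = 0.152) and without *lrx345* replicate 2 (adjusted p = 0.109). *ICS2*, the second synthase, was not called (-0.20 ± 0.22, adjusted p = 0.625). *FMO1*, which makes the mobile immune signal N-hydroxypipecolic acid, rose from 1.98 and 1.61 to 23.7 and 39.7 FPKM (4.13 ± 0.32, adjusted p = 2.43e-09).

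Of 17 tested SA signalling genes, 16 were called higher and none lower, with a median of 2.67. *PR1* stood at 3.31 and 10.3 FPKM in WT and 489 and 639 in *lrx345* (6.36 ± 0.41, adjusted p = 1e-10). *PR2*, a glucanase gene, rose from 5.17 and 4.72 to 143.5 and 151 FPKM (4.90 ± 0.25, adjusted p = 2.8e-12). *PR5*, a thaumatin-like gene, rose from 4.18 and 4.80 to 54.0 and 53.0 FPKM (3.57 ± 0.21, adjusted p = 2.79e-11). The 3 PR genes stood apart between genotypes by far more than within them, although the WT libraries differed from each other for *PR1*. *NPR1*, an SA receptor, was higher by 0.53 ± 0.11 (adjusted p = 0.00113), *NPR3* by 1.32 ± 0.11 and *NPR4* by 0.62 ± 0.16, and the call of *NPR4* was lost without WT replicate 3 (adjusted p = 0.0728) and without *lrx345* replicate 1 (adjusted p = 0.0662). *BSMT1*, which methylates SA, was the 1 member not called. It was listed at 0 in all 4 libraries, so it could show no difference at 0 h.

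Members of several defence families were higher, where 10.0% of all tested genes were higher and 8.02% lower. Of 69 tested WRKY transcription factor genes 27 were higher and 1 lower, of 43 cysteine-rich receptor kinases (CRK) 26 were higher and 3 lower, and of 14 wall-associated kinases (WAK) 7 were higher and none lower. *WRKY62* rose from 0.809 and 1.65 to 34.1 and 38.8 FPKM (4.87 ± 0.34), and *WRKY75* from 6.54 and 5.10 to 35.9 and 44.98 (2.79 ± 0.36). *WAK1*, whose product binds pectin in the wall, rose from 13.3 and 17.8 to 60.8 and 64.3 FPKM (2.01 ± 0.18, adjusted p = 1.94e-08). Among 16 immune marker genes 12 were higher, including *CYP81F2* by 3.32 ± 0.36 and the kinase gene *MPK11* by 3.62 ± 0.40. *FLS2*, the receptor for bacterial flagellin, was the exception among them, at 15.8 and 18.1 FPKM in WT and 11.6 and 12.3 in *lrx345* (-0.51 ± 0.12, adjusted p = 0.00363), a call lost without WT replicate 3 (adjusted p = 0.0826). Of 40 tau and phi glutathione S-transferases, enzymes that join glutathione to toxic compounds, 19 were higher and none lower. *GSTF2* alone rose from 758 and 854 to 4748 and 5938 FPKM (2.73 ± 0.23, adjusted p = 4.86e-09). Calls were lost without single libraries in every one of these families, the WRKY count reaching 22 at lowest, the CRK count 18 and the GST count 14.

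**Figure D3:**
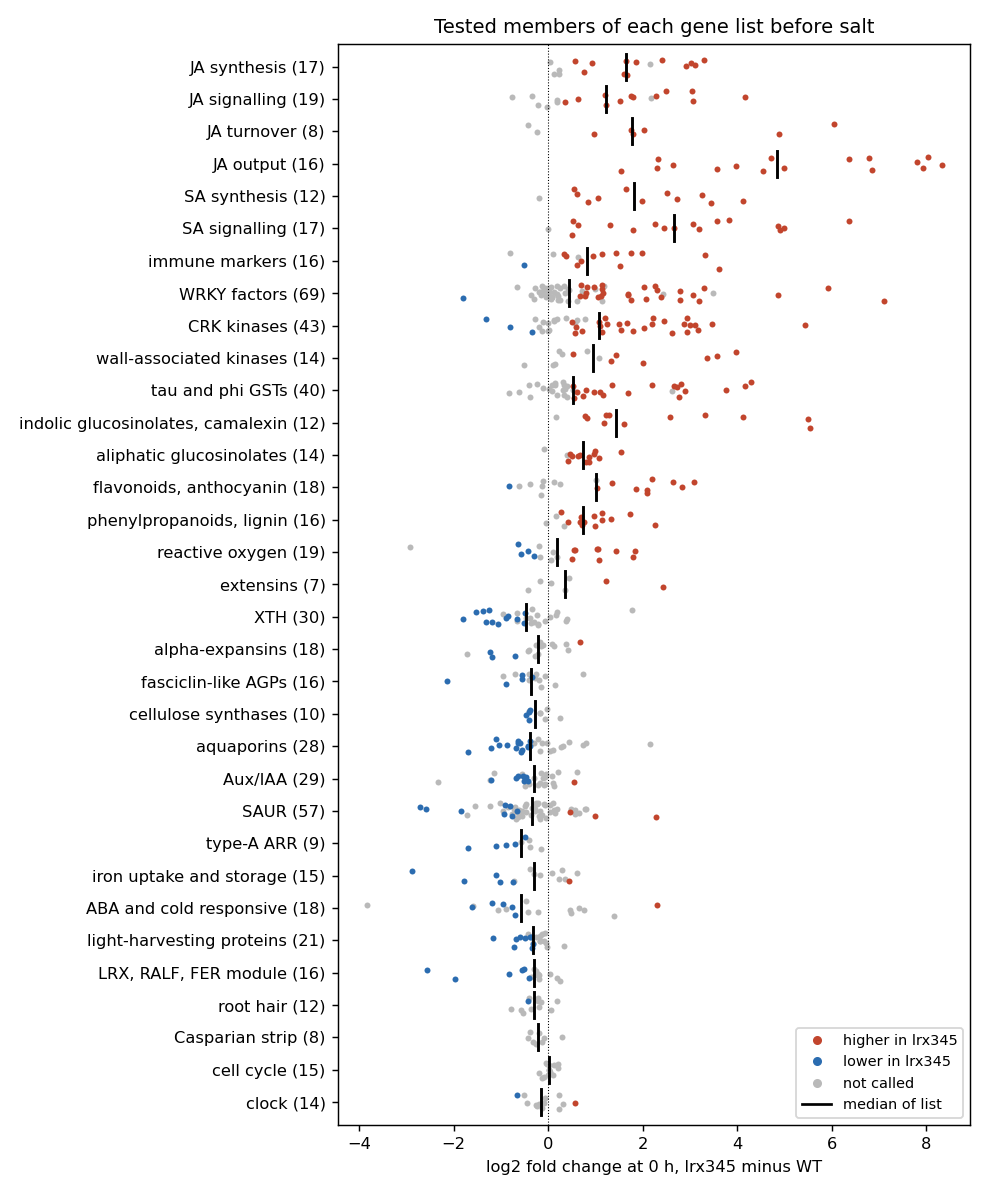
Log2 fold change at 0 h (*lrx345* minus WT) of the tested members of 33 gene lists, 1 point per gene, called genes in colour and the list's median as a bar. Medians run from 4.85 for JA output to -0.58 for type-A response regulators (ARR) and for genes responsive to abscisic acid and cold.

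Several of the strongest increases sat beside each other on the chromosome. In 16 runs, 3 or more neighbouring tested genes were each higher by over 4-fold. The longest reached over 6 genes from AT5G52670 to AT5G52720 (chr5:21363655-21379744), with log2 fold changes of 5.29 to 6.19, and AT5G52670 itself stood at 0.475 and 0.620 FPKM in WT and 18.5 and 33.7 in *lrx345*. Others held the myrosinase-binding genes *MBP1* and *MBP2* with AT1G52000, the glutathione S-transferases *GSTF5*, *GSTF6* and *GSTF7*, and the kinases *WAK1*, *WAK3* and *WAK5*. Several of these runs are tandem copies of 1 gene family, and fragments that fit several members were dropped by the authors' counting.

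Promoter sequences of hormone genes are shown because the JAZ and JA synthesis genes moved together. The 250 bases before the annotated start were read from the RefSeq TAIR10.1 genome and searched on both strands for the G-box CACGTG, which MYC2 and related proteins can bind, and for the W-box written as TTGACC or TTGACT, which WRKY proteins can bind. The 3 JA promoters and the *PR5* promoter below were picked because they hold a motif, which is in capitals, with AGTCAA or GGTCAA as the W-box read on the other strand.
JAZ8, chr1:10596242-10596491, plus strand: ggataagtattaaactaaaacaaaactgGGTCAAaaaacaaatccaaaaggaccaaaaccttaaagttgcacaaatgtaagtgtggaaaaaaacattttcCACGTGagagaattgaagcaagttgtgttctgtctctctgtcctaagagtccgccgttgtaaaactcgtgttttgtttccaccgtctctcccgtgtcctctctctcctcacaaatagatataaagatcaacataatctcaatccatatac
AOS, chr5:17099396-17099645, minus strand: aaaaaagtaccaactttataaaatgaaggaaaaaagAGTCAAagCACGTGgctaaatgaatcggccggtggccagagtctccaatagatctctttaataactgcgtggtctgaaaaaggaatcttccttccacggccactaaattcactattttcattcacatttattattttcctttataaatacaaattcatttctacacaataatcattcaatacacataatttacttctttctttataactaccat
AOC3, chr3:9409040-9409289, plus strand: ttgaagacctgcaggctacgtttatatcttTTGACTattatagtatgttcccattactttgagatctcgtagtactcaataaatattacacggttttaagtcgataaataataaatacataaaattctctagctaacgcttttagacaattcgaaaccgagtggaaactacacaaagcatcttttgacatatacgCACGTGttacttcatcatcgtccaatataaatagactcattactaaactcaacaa
PR5, chr1:28177453-28177702, plus strand: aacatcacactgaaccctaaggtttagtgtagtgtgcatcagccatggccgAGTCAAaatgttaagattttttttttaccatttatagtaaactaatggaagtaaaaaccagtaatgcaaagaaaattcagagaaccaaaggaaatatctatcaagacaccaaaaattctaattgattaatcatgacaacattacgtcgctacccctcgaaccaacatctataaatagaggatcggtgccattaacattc

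The G-box was present in 10 of the 20 promoters of JAZ and JA synthesis genes called higher, against 8.7% of 21714 promoters of tested genes. It was present in 11.5% of the promoters of all genes called higher and in 8.1% of those called lower. The W-box was present in 44.3% of the promoters of genes called higher, in 403 of 1750 of those called lower and in 29.4% of those of all tested genes. The W-box was present in 19 of 50 promoters of WRKY and SA genes called higher (38.0%) and in 10 of the 20 of JAZ and JA synthesis genes. Among JA output genes the G-box was present in 2 of 16 (12.5%). A further motif, the GCC-box GCCGCC, was looked for after the results were seen, and was present in 3.5% of promoters of higher genes, in 2.3% of those of all tested genes and in 0 of the 16 of JA output genes. These are matches of letters in a short window and are given as a description.

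Genes for tryptophan-derived defence compounds were higher. Of 12 tested genes for indole glucosinolates and camalexin, 11 were called higher and none lower, with a median of 1.44, and all 11 calls held with any 1 library left out. *CYP79B2*, which turns tryptophan into the shared precursor, rose from 56.5 and 55.8 to 131 and 212 FPKM (1.61 ± 0.15, adjusted p = 4.72e-08). *CYP71A12*, of the camalexin branch, rose from 5.58 and 6.91 to 110 and 472 FPKM (5.54 ± 0.52, adjusted p = 3.85e-08). *PAD3*, the last enzyme of camalexin synthesis, rose from 7.35 and 6.39 to 85.8 and 153 FPKM (4.11 ± 0.38, adjusted p = 2.17e-08). The camalexin genes had larger fold changes than *CYP79B2*, and *lrx345* replicate 2 was the higher of the mutant pair for all 3. *MYB34*, an activator of the indole pathway, was not called (0.17 ± 0.13, adjusted p = 0.46).

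Genes for methionine-derived, aliphatic glucosinolates were also higher, by less. Of 14 tested, 12 were called higher and none lower, with a median of 0.74, and *CYP79F1*, the first enzyme of the core pathway, rose from 58.4 and 51.5 to 115 and 104 FPKM (1.0 ± 0.12, adjusted p = 1.44e-06). *MYB28*, the main activator, was not called, at 50.03 and 44.4 FPKM in WT and 45.8 and 43.1 in *lrx345* (-0.09 ± 0.18). Only 8 aliphatic calls remained without WT replicate 1 and 8 without *lrx345* replicate 1.

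Phenylpropanoid genes were higher in part. Of 18 tested flavonoid genes 9 were higher and 1 lower, and of 16 lignin and general phenylpropanoid genes 13 were higher and none lower. The late anthocyanin genes *LDOX* and *TT3* rose from 4.85 and 4.86 to 40.9 and 42.1 FPKM (3.09 ± 0.30) and from 5.81 and 5.84 to 40.4 and 42.3 FPKM (2.82 ± 0.28). *TT4*, the chalcone synthase gene that opens the pathway, was not called, at 98.3 and 136 FPKM in WT and 117 and 138 in *lrx345* (0.12 ± 0.19, adjusted p = 0.738). *FLS1*, which leads to flavonols instead of anthocyanins, fell from 29.0 and 33.9 to 19.1 and 16.2 FPKM (-0.83 ± 0.13, adjusted p = 4.75e-05). *TT7*, the flavonoid 3'-hydroxylase gene that serves both branches, was higher by 2.09. *FAH1*, which is needed for sinapate esters and syringyl lignin, rose from 39.8 and 41.8 to 134 and 139 FPKM (1.74 ± 0.14, adjusted p = 4.65e-09), and *PAL1*, the entry enzyme, from 85.9 and 91.6 to 196.5 and 252 (1.34 ± 0.12, adjusted p = 1.54e-08).

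Genes of reactive oxygen metabolism were split. Of 19 tested, 9 were higher and 4 lower, with a median of 0.20, against 10.0% and 8.02% of all tested genes. *RBOHD* and *RBOHF*, oxidase genes that the study names for producing reactive oxygen, were both higher. *RBOHD* rose from 28.5 and 30.8 to 72.5 and 88.4 FPKM (1.44 ± 0.12, adjusted p = 5.37e-09). *RBOHF* rose from 11.6 and 11.6 to 16.3 and 18.25 FPKM (0.57 ± 0.11, adjusted p = 0.000702). *CAT3*, a catalase gene, rose from 1078 and 1215 to 2226 and 2513 FPKM (1.05 ± 0.14, adjusted p = 9.81e-06), and *CSD1*, a cytosolic copper/zinc superoxide dismutase gene, from 98.0 and 109 to 227 and 211 (1.08 ± 0.13, adjusted p = 1.05e-06). *FSD1*, an iron superoxide dismutase gene, fell from 576 and 672 to 384.5 and 417 FPKM (-0.64 ± 0.13, adjusted p = 0.00106). *PER4*, a peroxidase gene outside this list, stood at 2.83 and 2.94 FPKM in WT and 22.4 and 88.6 in *lrx345* (4.25 ± 0.55, adjusted p = 4.26e-06). It was the 1 called of 3 tested genes named PER, whose median was 0.07. Other peroxidase genes do not carry this name, so these 3 do not describe the family. Among those, *AT1G14550* and *AT3G03670* were called higher, by 6.07 and 4.70, and *AT1G34510* was not called (-0.21). The mutant libraries were far apart for all of them.

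Cell wall genes differed in both directions. Of 11 pectin methylesterases 3 were higher and 2 lower, with a median of 0.08, where 10.0% and 8.02% of all tested genes were. Extensins, the structural glycoproteins whose domain LRX proteins share, included very abundant transcripts that were higher. *EXT4* stood at 1109 and 1420 FPKM in WT and 5986 and 7640 in *lrx345* (2.43 ± 0.27, adjusted p = 4.14e-07). *EXT3* stood at 2170 and 2595 FPKM in WT and 5045 and 6076 in *lrx345* (1.22 ± 0.21, adjusted p = 0.000129). The other 5 of the 7 tested extensins were not called, and among them *EXT6* stood at 32.3 and 38.3 FPKM in WT and 67.7 and 21.8 in *lrx345*, with the mutant libraries on both sides of WT.

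Several wall-loosening genes were lower, where 8.02% of all tested genes were lower. Of 30 tested xyloglucan endotransglucosylase/hydrolases (XTH), enzymes that cut and rejoin xyloglucan, 12 were called lower and none higher, with a median of -0.48, and 6 remained without WT replicate 3 and 7 without *lrx345* replicate 2. The other 18 were not called, and 6 of the 12 calls held in every fit with 1 library left out. *XTH4* fell from 496 and 611 to 154.5 and 163 FPKM (-1.80 ± 0.14, adjusted p = 1.44e-09), and *XTH17* from 38.2 and 37.1 to 16.1 and 9.91 (-1.52 ± 0.21, adjusted p = 1.08e-05). *EXPA3*, an expansin gene, fell from 50.3 and 57.6 to 22.8 and 24.8 FPKM (-1.18 ± 0.15, adjusted p = 2.58e-06), and of 18 expansins 3 were lower, 1 was higher (*EXPA10*, 0.68 ± 0.12, adjusted p = 0.000339) and 14 were not called. *FLA13*, a fasciclin-like arabinogalactan protein gene, fell from 103 and 129 to 26.7 and 26.1 FPKM (-2.13 ± 0.18, adjusted p = 8.37e-09), one of 5 of 16 tested members called lower. The summed XTH level was 1552 and 1788 FPKM in WT and 947 and 875 in *lrx345*.

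Cellulose synthases of the primary wall were slightly lower. *CESA1*, *CESA3*, *CESA5* and *CESA6* had log2 fold changes of -0.46, -0.38, -0.41 and -0.40, and *CESA1* stood at 134 and 145.5 FPKM in WT and 101 and 101.5 in *lrx345* (adjusted p = 0.00519). No CESA was called lower without WT replicate 3, where *CESA1* had an adjusted p of 0.0745, 2 were without *lrx345* replicate 1, and 1 was without *lrx345* replicate 2, where *CESA1* had 0.0512. The secondary-wall genes *CESA4*, *CESA7* and *CESA8* were not called.

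Among aquaporins, the membrane channels for water, only decreases were called. Of 28 tested, 15 were called lower, none higher and 13 not at all, with a median of -0.39 and 8 positive values, and 9 to 12 were with 1 library left out (10 without each WT library, 12 without *lrx345* replicate 1 and 9 without replicate 2). *DELTA-TIP*, a vacuolar channel gene, fell from 477 and 496 to 153 and 148 FPKM (-1.69 ± 0.15, adjusted p = 1.66e-08). *TIP2* (AT3G26520), another vacuolar channel gene, fell from 1155 and 1250 to 624 and 699 FPKM (-0.86 ± 0.13, adjusted p = 3.03e-05). Both mutant libraries lay below both WT libraries for each of these genes, where 60.3% of all tested genes had no overlap in either direction.

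Some transcripts of growth hormone responses were lower, where 8.02% of all tested genes were lower and 10.0% higher. Several of the counts below are not far from these shares. Of 9 tested type-A response regulators, which report cytokinin signalling, 5 were lower and none higher, with a median of -0.58, and 3 were without *lrx345* replicate 2. *ARR16* fell from 12.6 and 13.5 to 4.23 and 3.79 FPKM (-1.69 ± 0.30, adjusted p = 0.000187), and *ARR6* from 24.2 and 21.7 to 12.96 and 8.18 (-1.10 ± 0.18, adjusted p = 9.27e-05). Of 29 Aux/IAA genes, which are induced by auxin and repress its responses, 8 were lower and 1 higher, and *IAA3* fell from 25.96 and 27.9 to 10.9 and 12.4 FPKM (-1.21 ± 0.14, adjusted p = 8.63e-07). The count of lower Aux/IAA genes was 4 without *lrx345* replicate 2. Of 57 SAUR genes, many of which respond to auxin in elongating tissue, 8 were lower and 3 higher, and *SAUR78* fell from 194 and 237 to 122 and 107 FPKM (-0.91 ± 0.17, adjusted p = 0.000434). Lower SAUR genes numbered 5 without WT replicate 1, 4 without WT replicate 3 and 3 without *lrx345* replicate 2. Of 16 other genes of growth hormone pathways 1 was higher and 1 lower, with a median of -0.18. None of the 15 tested cell cycle genes was called by edgeR or by DESeq2, 0 had an unadjusted p under 0.05, and their median was 0.02.

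**Figure D4:**
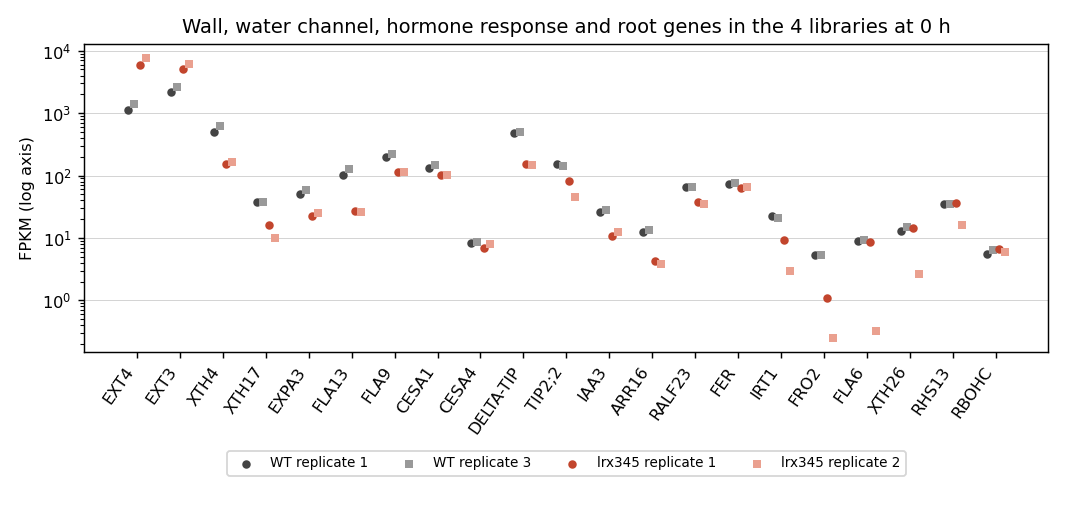
FPKM on a log axis of 21 cell wall, water channel, hormone response, module and root genes in the 4 libraries at 0 h, 1 point per library. *EXT4* and *EXT3* are higher in *lrx345*, genes from *XTH4* to *FLA9* are lower in both mutant libraries, and *FLA6* and *XTH26* are low in replicate 2 of *lrx345* alone.

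Of 16 tested genes of the LRX, RALF and FER module, 6 were lower, the 3 mutated loci among them, and 3 were without *lrx345* replicate 2. *RALF23*, a peptide ligand of FER in immunity, stood at 64.3 and 64.4 FPKM in WT and 37.5 and 34.7 in *lrx345* (-0.83 ± 0.16, adjusted p = 0.000524). *FER* was not called, at 72.6 and 75.9 FPKM in WT and 61.9 and 65.7 in *lrx345* (-0.22 ± 0.09, adjusted p = 0.121), and neither was its co-receptor gene *LLG1* (-0.31 ± 0.13, adjusted p = 0.109). *THE1*, a receptor kinase gene related to *FER*, was lower by -0.52 ± 0.12 (adjusted p = 0.00263), which did not hold without *lrx345* replicate 2 (adjusted p = 0.0547). *LRX1* and *LRX2*, the root hair members of the family, were not called and overlapped between genotypes.

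Iron uptake genes were lower. *FRO2*, the root ferric reductase gene, stood at 5.27 FPKM in each WT library and at 1.096 and 0.252 in *lrx345* (-2.88 ± 0.34, adjusted p = 1.12e-06). *IRT1*, the root iron transporter gene, stood at 22.9 and 20.98 FPKM in WT and 9.39 and 2.98 in *lrx345* (-1.79 ± 0.35, adjusted p = 0.000547). Replicate 2 was the lower mutant library for both, as it was for root hair genes, and both calls held without it. *FER1* and *FER4*, which encode the iron store ferritin and not the receptor kinase, were lower by -1.02 ± 0.18 and -0.75 ± 0.13. Of 15 tested iron genes 5 were lower and 1 higher. The 12 root hair genes summed to 208 and 218 FPKM in WT and 238 and 108 in *lrx345*, and 12 root marker genes to 2563 and 2889 in WT and 2748 and 2243 in *lrx345*. In whole seedlings, fewer cells of a type and less RNA per cell cannot be told apart, and the part of root hair RNA in the iron result was not tested.

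Among light-harvesting genes and shoot markers most were not called, and those called were lower. Of 21 light-harvesting genes 9 were called lower and none higher, with a median of -0.31, and *LHCB1.4* fell from 429 and 375 to 128.5 and 231 FPKM (-1.16 ± 0.22, adjusted p = 0.000418). The count was 3 without either WT library, 1 without *lrx345* replicate 1 and 5 without *lrx345* replicate 2. Of 12 shoot markers 5 were lower, and none without *lrx345* replicate 1 and 2 without each of the others. In every fit with 1 library left out, 1 of the 9 and 0 of the 5 calls held. Summed FPKM of the shoot markers was 11580 and 11750 in WT and 8467 and 9919 in *lrx345*. Defining genes of other organs were mostly at or near 0, since only 3 of 6 flower markers and 3 of 9 seed storage markers had enough counts to be tested, and *SEP3* was the 1 called among them.

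Most stress genes responsive to abscisic acid (ABA) and cold were not called, and those called were mostly lower. Of 18 tested, 5 were lower and 1 higher, with a median of -0.58. *RD29A*, which the study follows under salt, fell from 34.0 and 35.7 to 9.12 and 13.8 FPKM (-1.61 ± 0.23, adjusted p = 1.78e-05). *RD29B* had 7 and 2 counts in WT and 2 and 2 in *lrx345* and was not called. *COR47*, a dehydrin gene, fell from 425 and 452 to 203 and 181 FPKM (-1.19 ± 0.21, adjusted p = 0.000195). *COR413IM1*, a chloroplast membrane gene of cold response, was lower by -0.95 ± 0.20. *RD20*, a calcium-binding oil body gene, was the 1 member called higher, from 0.672 and 0.584 to 2.75 and 3.61 FPKM (2.30 ± 0.50, adjusted p = 0.00165). *RD22* was lower by -0.76 ± 0.19 (adjusted p = 0.00576), a call lost without WT replicate 3 (adjusted p = 0.111). *UGT71B6*, which attaches glucose to abscisic acid, was higher by 2.44 ± 0.31, beside the increase of *BGLU18* given above. Of 21 tested genes of ABA metabolism, 4 were higher, 2 lower and 15 not called, with a median of 0.15.

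The genes found at 0 h were then read in the later libraries, which are other samples, under 150 mM NaCl, with no untreated seedlings at those times. Of the 2190 genes higher at 0 h, 1523, 1743 and 1549 were also higher at 6, 24 and 72 h, where 18.3%, 24.3% and 31.3% of all tested genes were higher. Of the 1750 lower genes, 886, 1235 and 1285 were also lower, against 17.7%, 28.4% and 30.7% of all tested genes. At all 3 later times 1109 of the higher genes (50.6%) and 674 of the lower genes (38.5%) kept their call. Calls in the other direction at 6, 24 and 72 h were made for 56, 64 and 189 of the higher genes and for 90, 86 and 176 of the lower genes. The 674 were 327 to 433 with 1 library left out, 433 without *lrx345* replicate 1 and 327 without *lrx345* replicate 2.

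The size of the difference at each later time was tested against that at 0 h, which uses the 0 h libraries again. It differed for 1886 genes at 6 h (8.64%), 3891 at 24 h (17.8%) and 7022 at 72 h (32.2%). Over all tested genes the signed difference was larger for 5.20% and smaller for 3.44% at 6 h, 9.55% and 8.28% at 24 h, and 15.3% and 16.9% at 72 h. Among the genes higher at 0 h, the difference was smaller for 369 and larger for 103 at 6 h, smaller for 297 and larger for 432 at 24 h, and smaller for 739 and larger for 300 at 72 h. Among the genes lower at 0 h, the difference was less negative for 280 and more negative for 9 at 6 h, for 241 and 95 at 24 h, and for 321 and 435 at 72 h. Both sets were chosen by their 0 h values, so these counts are a description. JA output had median log2 fold changes of 4.85 at 0 h and 4.20, 5.17 and 2.60 at 6, 24 and 72 h, and 14 of its 16 genes were still higher at 72 h. *PR1* differed by 6.36 at 0 h and by 6.82, 5.31 and -0.10 later, so it was no longer called at 72 h (adjusted p = 0.787). Aliphatic glucosinolate genes changed sides, with a median of 0.74 at 0 h and -1.61 at 72 h, when all 14 were lower. The XTH median was -0.48 at 0 h and 0.29, -0.84 and -1.15 later, and the aquaporin median -0.39 at 0 h and -0.33, -0.48 and -1.19 later. The list responsive to ABA and cold had a median of -0.58 at 0 h, -1.01 at 6 h with 13 of 18 genes lower, 0.43 at 24 h and 2.06 at 72 h with 13 genes higher.

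**Figure D5:**
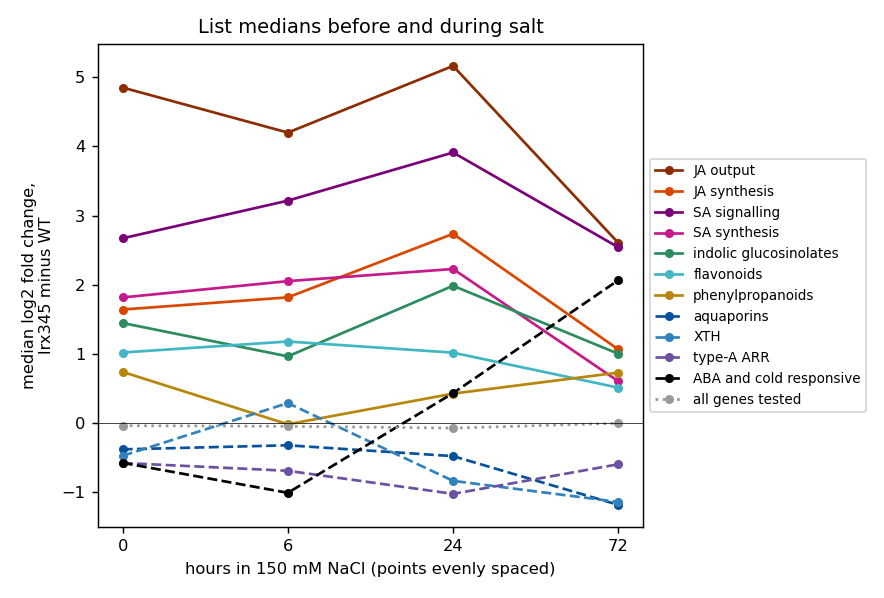
Median log2 fold change (*lrx345* minus WT) of 11 gene lists and of all tested genes at 0 h and after 6, 24 and 72 h of NaCl. Of the lists drawn, JA output has the highest median at each time (4.85, 4.20, 5.17 and 2.60), and the list responsive to ABA and cold goes from -0.58 to 2.06.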

How the data were processed

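RNA from whole 10-day-old seedlings was sequenced as paired ends. Per the study's methods and the submitters' processing notes, the authors aligned reads to TAIR10 with TopHat2 and counted fragments per gene with featureCounts 1.4.6, without strand and without fragments that matched several places or genes. The deposited values are raw counts per gene, not normalised. Reads of overlapping or antisense genes therefore cannot be told apart, and *TT6*, which an opposite-strand gene covers almost wholly, is not reported. The methods name 3 biological replicates, and 2 libraries per genotype at 0 h were analysed here. One WT library is number 2 in the labels and 3 in the count table, and is called replicate 3.

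From the counts, edgeR 4.0.16 (R 4.3.3) with TMM factors, its filter on low counts and 1 group per genotype and time gave the quasi-likelihood test over all 22 libraries (14 residual degrees of freedom). SE is the log2 fold change divided by the square root of F, an approximation. FPKM used the exon length and TMM library sizes. Of 33602 identifiers, 32835 were paired with RefSeq TAIR10.1, and 97.9% of 120591 introns read at its coordinates began with GT and ended with *AG*. Named genes were the mutated loci, genes the study names before salt, the 10 largest changes in each direction with a mean of at least 50 counts and no overlap, and in each list the 2 largest called changes in each direction, beside other members of their lists. The members and the 52 lists and families, with 1012 genes, were chosen with earlier results of these data known, and 8 list members without a paired identifier were left out. Alternatives were DESeq2 1.42.0, upper-quartile factors, no filter, a mean of at least 20 counts, only the 0 h libraries, a replicate block, and each 0 h library left out. On simulated data for the 0 h comparison (21199 genes), 30 of 67 genes changed 1.5-fold, 59 of 67 changed 2-fold and 66 of 66 changed 4-fold were recovered, with 10 false calls among 165. The changed genes were drawn from those with an expected mean of at least 50 counts at 0 h, so recovery at lower counts was not simulated. Counting intervals cover counting error only.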

Additional observations from a re-analysis of the deposited data

Results flagged for a closer look

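For several named genes the genotype difference at a later time differed from that at 0 h, by a test of the difference itself in edgeR over all genes (Benjamini-Hochberg adjusted p-values). The 0 h libraries enter every one of these tests, and the later libraries had NaCl, so time and salt cannot be told apart. Values are the log2 genotype difference later minus that at 0 h.

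Several of the largest increases at 0 h were smaller at 72 h. All genes here but *RD29A* were taken for an extreme difference at 0 h, which by itself favours a smaller difference later. This includes *LRX3*, which was also named as a mutated locus. The change was -6.80 for *NATA1* (adjusted p = 3.92e-11), -3.66 for *JAL23* (1.3e-05), -4.87 for *PDF1.2* (6.59e-05), -4.56 for *PDF1.2c* (9.65e-05), -5.34 for *PDF1.3* (3.33e-06), -3.73 for *AT1G54020* (4.45e-05) and -2.78 for *MBP1* (3.87e-06). *NATA1* was also smaller at 6 h, by -1.64 (adjusted p = 0.0355). *DIR5* was smaller at every later time, by -5.06 at 6 h (adjusted p = 0.0111), -5.83 at 24 h (0.000935) and -5.07 at 72 h (0.00162).

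The decrease of *FRO2* at 0 h was smaller at 6, 24 and 72 h, by 2.42, 2.48 and 2.12 (adjusted p = 0.00265, 0.00414 and 0.00403), and the gene was not called at those times. Smaller decreases at 6 h were also found for *AT5G03120* (1.16, adjusted p = 0.014), *FLA13* (1.33, 0.00146), *LRX3* (0.89, 0.0036), *LUP1* (1.01, 0.0143) and *AT4G16563* (1.18, 0.00336), and at 24 h for *AT5G03120* (0.83, 0.0362), *LRX3* (0.60, 0.0279) and *LUP1* (0.96, 0.0144). *AT4G16563* changed sides at 72 h, from -1.85 to 0.78 (difference 2.63, adjusted p = 1.81e-08). Larger decreases at 72 h were found for *AT2G05540* (-1.63, 0.00114) and *AT1G12080* (-1.999, 6.51e-05). *RD29A*, a stress gene looked at here because its sign turned, was lower by -1.61 at 0 h and higher by 2.11 at 72 h (difference 3.72, adjusted p = 2.14e-09).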

How the results depend on the processing

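No named gene reversed under any alternative that tested it, and 108 of 147 kept their side of the threshold in every such one. Genes not tested in an alternative were passed over there, and with a mean of at least 20 counts 141 were compared. Of the 147 genes 145 were called in the main fit, many of them picked for large changes, so a reversal was unlikely from the start. The genes that differed at 0 h numbered 3784 with DESeq2, 4049 with upper-quartile factors, 3661 without the filter and 4401 with the 0 h libraries alone, and 2332 to 2954 with 1 library left out, against 3940. Leaving out 1 library gave 1531 to 1890 higher and 800 to 1064 lower genes at 0 h, differences against 0 h at 1115 to 1353 genes at 6 h, 2512 to 3258 at 24 h and 5356 to 5851 at 72 h, and persistence at all times for 868 to 1028 higher and 327 to 433 lower genes. In these fits the lone library is assumed to vary like the other groups. Adding a fold change over 2 left 1401 genes (1152 higher, 249 lower) at adjusted and 1652 (1301 and 351) at unadjusted p-values. With a replicate block the counts were 2445 genes at 0 h (873 lower), 1164 and 2446 differences against 0 h at 6 and 24 h, and 345 persistent lower genes, and 26 named genes lost their call. In that fit WT replicate 3 had a block of its own, so the WT level at 0 h rested on replicate 1 alone. It is thus close to the fit without WT replicate 3, and its lost calls cannot be credited to blocking. The numbers did not pair the libraries: same-numbered libraries of different groups deviated from their group means with correlations of -0.243 to 0.186 (median 0.010, 64 pairs). Lower genes rest on small changes. Among well-counted genes the simulation recovered 44.8% of 1.5-fold changes. The simulation made 165 calls against 3940 here, so an adjusted p under 0.05 asked for a smaller unadjusted p there. Its spread was also estimated over all groups, not from the 0 h libraries alone. A small difference can be missed at this depth and number of libraries, at a rate the simulation does not give.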

Other observations

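Some groups outside the hormone and growth lists differed in single members, where 10.0% of all tested genes were higher and 8.02% lower. Of 8 touch and calcium genes 3 were higher at 0 h, among them *TCH3*, a calmodulin-like gene, from 75.1 and 79.5 to 210 and 246 FPKM (log2 fold change 1.56 ± 0.24, edgeR adjusted p = 3.4e-05), and *CML37*, from 0.907 and 0.621 to 5.05 and 9.75 (3.21 ± 0.66, adjusted p = 0.00106). Of 12 senescence genes 6 were higher and 1 lower, and *SAG13* rose from 0.420 and 0.616 to 18.4 and 28.2 FPKM (5.46 ± 0.53, adjusted p = 4.82e-08). *NAC042*, a transcription factor gene of camalexin synthesis, rose from 1.71 and 1.99 to 17.97 and 51.2 FPKM (4.20 ± 0.41, adjusted p = 5.73e-08). *BIP3*, an endoplasmic reticulum chaperone gene, rose from 0.204 and 0.332 to 1.37 and 1.35 FPKM (2.32 ± 0.50, adjusted p = 0.00153).

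Of 14 clock genes, 1 was higher and 1 lower at 0 h, with a median of -0.15, against 10.0% and 8.02% of all tested genes. Of 8 housekeeping genes, *UBQ10* was higher by 0.40 (adjusted p = 0.0343) and *ACT8* lower by -0.44 (adjusted p = 0.00221). The call of *UBQ10* was lost with any 1 library left out (adjusted p of 0.0955 to 0.174), and that of *ACT8* without *lrx345* replicate 2 (-0.35, adjusted p = 0.0708). No Casparian strip gene of 8 tested was called at 0 h by edgeR or DESeq2, 1 had an unadjusted p under 0.05, and all 8 were lower at 72 h.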
